A study of Mus musculus with 20 samples.

Results

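Foxp3+ regulatory T cells (Treg) were set against CD5hi naive CD4 T cells, both taken from the mouse and processed at once without culture. The comparison uses 8 of the series' 20 RNA-seq libraries, the 4 of the Treg group and the 4 of the fresh CD5hi group, chosen by the column names of the deposited count table. All cells came from C57BL/6 mice of 8 to 12 weeks that carry a GFP reporter of Foxp3 (its allele is not named in the labels), and were enriched for T cells from spleen and lymph node before sorting. Both gates required live single cells with TCRb and CD4, without CD8, and without the B cell marker B220, the myeloid markers CD11b, CD11c, F4/80 and Ly6G, the NK cell marker NK1.1 or the activation marker CD69. The CD5hi cells were in addition negative for Foxp3-GFP and CD44 and lay in the 15% with most CD5. The Treg were positive for Foxp3-GFP, with no gate on CD44 or CD5, so the Treg group holds resting and CD44-positive cells together. The cell type field of the labels opens with the name of the CD5lo naive population for all 20 samples, Treg and CD5hi included; the groups were taken from the titles, which match the gate given in the same field. No gate, agent or deletion separates the groups beyond these, and the numbered libraries of each group are called biological replicates in the labels.

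Treg suppress the activity of other lymphocytes, and the transcription factor Foxp3 fixes their identity together with signals from the T cell receptor (TCR), from CD28 and from interleukin 2. They bind IL-2 through a high-affinity receptor, make little or none of it, and carry CTLA-4 and TGF-beta activating proteins on their surface. CD5 is an inhibitory surface protein whose level on a naive T cell follows the strength with which its TCR meets self peptides on MHC, so CD5hi cells are the naive cells with the strongest self recognition, and the comparison asks how Treg differ from them.

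The libraries held 43509126 to 54555773 counts in the Treg group and 43770193 to 59065224 in the CD5hi group. Between 14917 and 15074 gene symbols had a count in the Treg libraries, against 14469 to 14680 in the CD5hi libraries. Levels are given as CPM, counts divided by the TMM-scaled library size and brought to one common total. Although the labels describe pooled males and females, all 4 CD5hi libraries had reads of Y-linked genes (366 to 405 CPM summed over Ddx3y, Eif2s3y, Kdm5d and Uty) and at most 0.721 CPM of Xist. Treg replicate 3 was alike, with 333 CPM of Y-linked reads, whereas Treg replicates 1, 2 and 4 had 1501 to 1736 CPM of Xist and at most 0.149 CPM of Y-linked reads. Sex-linked reads thus moved with the groups, and Tsix, which overlaps Xist on the other strand and met the rule for the largest rises, moved with Xist (123, 109.9, 0.243 and 128 CPM in Treg replicates 1 to 4). Results are therefore also given for Treg replicate 3 alone against the CD5hi libraries, and with a term for sex-linked reads in the model. The CD5lo and CD5hi groups rested for 22 hours showed the Treg pattern, with Y-linked reads in replicate 3 alone (334 and 326 CPM). All fresh CD5lo libraries showed the CD5hi pattern (371 to 397 CPM). Other differences between the mice behind these patterns cannot be told apart from the contrast, and were not tested.

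The Treg differed from the CD5hi cells over much of the transcriptome. Of 13309 genes tested, 7208 (54.2%) passed an adjusted p of 0.05 in edgeR's quasi-likelihood test, 3663 higher in Treg (27.5% of genes tested) and 3545 lower (26.6%). Changes of at least 2-fold were less even, with 1709 genes higher (12.8%) and 501 lower (3.76%). All 4 Treg libraries lay above all 4 CD5hi libraries for 3624 genes (27.2%), and below them for 3557 (26.7%). The median log2 fold change over all genes tested was -0.02. Scaled by library totals alone, 4487 genes were higher and 2477 lower, a split of 64.4% higher among those called in place of 50.8%. With Treg replicate 3 as the only Treg library, 4734 genes were called, 2685 higher and 2049 lower, and with the sex term 7066 were called. Of the calls with the sex term, 6228 were shared with the reported fit in the same direction. At least 2-fold higher were then 1637 genes in place of 1709, and at least 2-fold lower 586 in place of 501. In bulk RNA, fewer cells with a transcript and less of it per cell cannot be told apart.

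**Figure D1:**
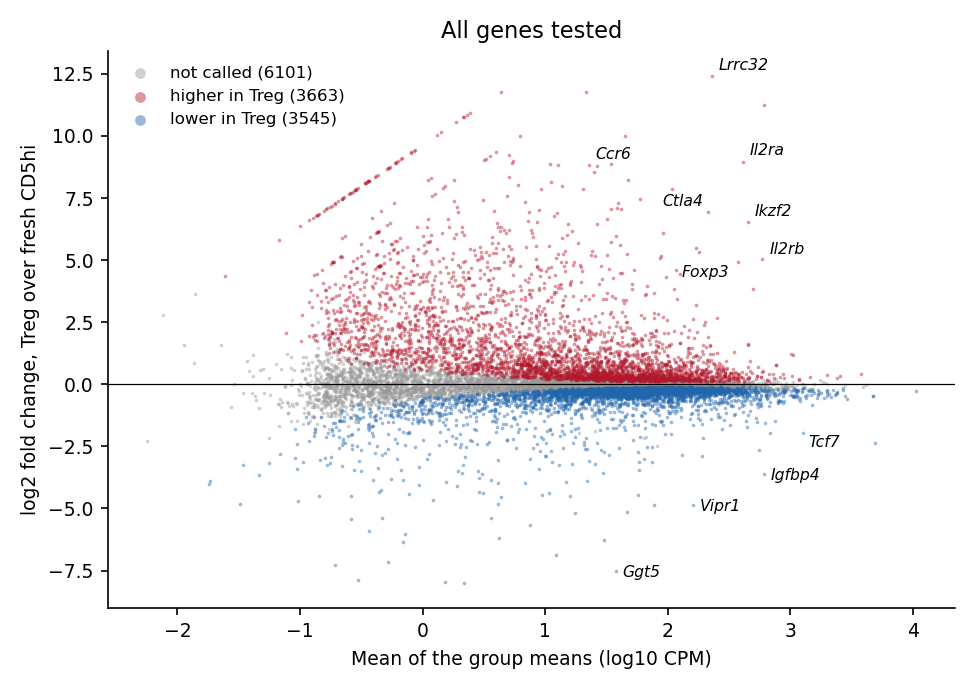
Each point is a gene, with its mean level in the 2 groups (log10 CPM) on the horizontal axis and its log2 fold change (Treg over fresh CD5hi) on the vertical axis; red and blue points passed the test. The 1709 rises of at least 2-fold reach further from 0 than the 501 falls, and the straight upper row of points at low levels holds genes with no counts in CD5hi cells, whose fitted change depends on a prior count; 1 gene at 0 in both groups is not drawn.

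The sorted proteins were traceable in the RNA, which checks the labels and is no finding. Foxp3 stood at 709, 734, 679 and 768 CPM in Treg replicates 1 to 4 and at 23.6, 22.4, 25.4 and 24.98 CPM in CD5hi replicates 1 to 4. The GFP-negative CD5hi cells thus held 3.33% of the Treg level, close to the 22.4 ± 1.02 CPM (SD, n = 4) of GFP-negative CD5lo naive cells. Cd44, the hyaluronan receptor gated out of the naive cells, went from 21.01 ± 1.38 CPM in CD5hi cells to 133 ± 5.58 CPM in Treg. Cd5 was lower in Treg, at 609.8, 613, 620.5 and 582 CPM, than in the cells picked for it, at 980.0, 989.6, 905 and 1055 CPM. Cd4 was 922 CPM in CD5hi cells and 706 CPM in Treg (log2 fold change -0.38, SE 0.043, adjusted p = 1.24e-07), and Cd69, which both gates excluded, did not pass (log2 difference 0.37, SE 0.22, adjusted p = 0.168), with no overlap between the libraries. It passed in a fit of the 8 libraries alone (0.38, adjusted p = 0.000187; 6.39e-05 with the replicate block), with limma-voom (0.36, adjusted p = 0.029) and with the sex term (0.77, adjusted p = 0.00731). The defining Treg markers Il2ra, Ctla4, Ikzf2, Tnfrsf18, Folr4 and Nrp1 were all higher in the Treg libraries, and the naive markers Ccr7, Il7r, Tcf7, Lef1 and Satb1 were detected in both groups and lower in Treg.

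The genes that define the Treg programme stood apart by the widest margins. All 23 Treg core genes tested were higher in Treg, each by at least 2-fold (12.8% of all genes tested) and with no overlap between the libraries of the groups (27.2% of all genes). Their median log2 fold change was 6.09, against -0.02 over all genes. The list was drawn up from textbook knowledge of Treg and with earlier results of these data known, so its direction is no independent evidence. Lrrc32 encodes GARP, which holds latent TGF-beta on the cell surface. It was at 472, 438, 433 and 502 CPM in Treg replicates 1 to 4 and at 0, 0.18, 0.106 and 0.0499 CPM in CD5hi replicates 1 to 4, the largest change among the genes named here with more than 3 counts in each group (log2 fold change 12.41, SE 0.27, adjusted p = 2.65e-19). Il2ra, the CD25 chain that gives the IL-2 receptor its high affinity, was at 862, 793, 788 and 852 CPM in Treg and 1.9, 1.6, 1.22 and 1.85 CPM in CD5hi cells. The Treg libraries lay within a narrow range for both genes, and every CD5hi library was near 0. Ikzf2 (Helios) was at 899, 841, 896 and 941 CPM against 9.17, 8.97, 10.1 and 10.2 CPM, and Ctla4, the inhibitory receptor that competes with CD28 for its ligands, at 407, 361, 467 and 452 CPM against 3.45, 4.19, 3.1 and 3.05 CPM. For Klrg1, a lectin-like receptor of differentiated T cells, the 4 CD5hi libraries held 2 counts together, against 42.8 CPM in Treg, so no fold is given.

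Other core genes were well above 0 in CD5hi cells. Folr4, the surface protein also called FR4, had the smallest change of the list, from 224 ± 2.19 CPM to 682 ± 23.9 CPM (SD, n = 4), so that CD5hi cells held 32.8% of the Treg level. Tnfrsf18 (GITR) was at 43.97, 44.6, 45.1 and 43.5 CPM in CD5hi cells and 232, 209, 246 and 219 CPM in Treg. Tnfrsf9 (4-1BB) rose from 11.1 to 144 CPM on average, and Tnfrsf4 (OX40) from 11.1 to 241 CPM. All 3 are costimulatory receptors of the TNF receptor superfamily, and in each the lowest Treg library was far above the highest CD5hi library. Nrp1, the semaphorin coreceptor found on thymus-derived Treg, went from 7.46 ± 0.281 to 332 ± 19.99 CPM. Itgae (CD103, which binds E-cadherin) went from 0.946 ± 0.362 to 217 ± 18.7 CPM, and Ikzf4 (Eos) from 18.2 ± 1.11 to 135 ± 5.54 CPM.

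**Figure D2:**
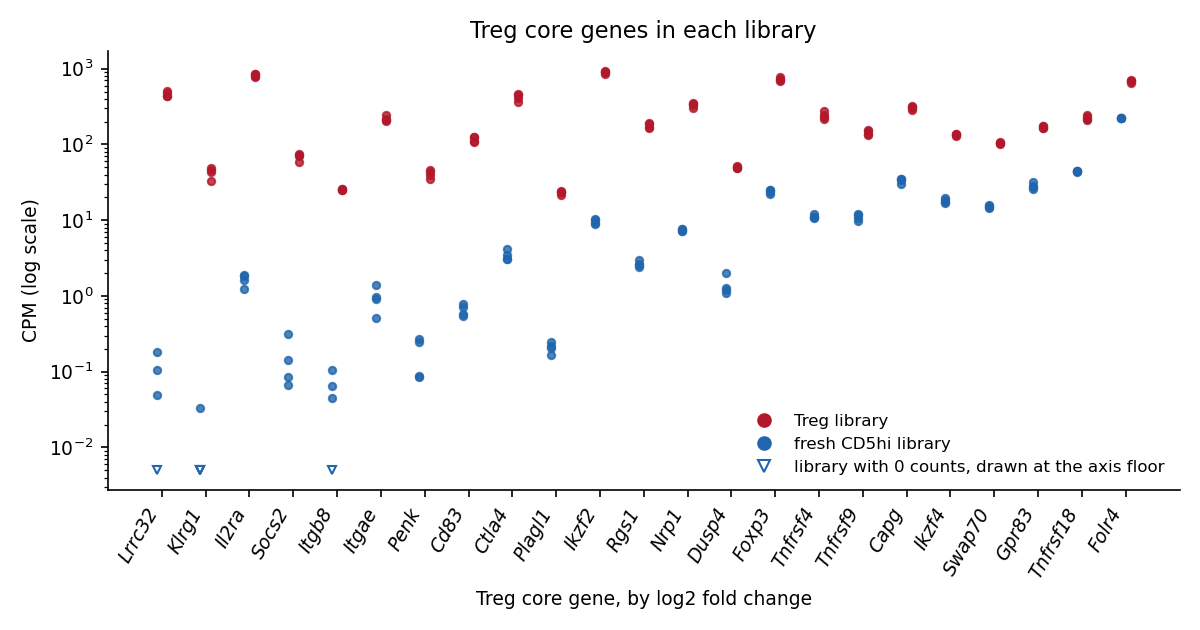
Levels of the 23 Treg core genes in each library (CPM, log axis), ordered by log2 fold change; each point is 1 library and open triangles mark libraries with 0 counts. In every gene the 4 Treg points lie above the 4 fresh CD5hi points, and the gap narrows from Lrrc32 at the left to Folr4 at the right.

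Upstream sequence was read for the core genes because STAT5, which IL-2 activates, binds the palindrome TTCNNNGAA, and the list rose together with the IL-2 receptor. RefSeq promoter windows (build GRCm38.p6) were matched for 12 of the 23 genes, and 3 of these hold the letters TTCNNNGAA, which read the same on both strands, within 250 bases before a start. The windows are printed with the match in capitals, each from the plus strand: Tnfrsf9 at chr4:150927749-150927998, Tnfrsf18 at chr4:156026072-156026321, and the later of the annotated starts of Foxp3 at chrX:7580233-7580482.
Tnfrsf9: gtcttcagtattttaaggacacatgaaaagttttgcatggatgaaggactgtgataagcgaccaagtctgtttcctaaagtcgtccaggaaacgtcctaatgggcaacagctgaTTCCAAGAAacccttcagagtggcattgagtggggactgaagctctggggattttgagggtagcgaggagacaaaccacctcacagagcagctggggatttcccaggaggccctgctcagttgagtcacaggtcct
Tnfrsf18: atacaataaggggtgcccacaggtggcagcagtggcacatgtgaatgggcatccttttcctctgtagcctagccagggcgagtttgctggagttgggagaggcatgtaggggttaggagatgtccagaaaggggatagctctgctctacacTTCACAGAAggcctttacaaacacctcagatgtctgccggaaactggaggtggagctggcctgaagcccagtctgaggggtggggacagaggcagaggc
Foxp3: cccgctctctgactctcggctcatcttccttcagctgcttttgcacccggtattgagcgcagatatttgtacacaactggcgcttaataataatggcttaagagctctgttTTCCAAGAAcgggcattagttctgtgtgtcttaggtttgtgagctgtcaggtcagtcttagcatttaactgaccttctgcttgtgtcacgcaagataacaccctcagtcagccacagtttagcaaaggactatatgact
The match begins 136 bases before the start in Tnfrsf9, 99 in Tnfrsf18 and 139 in Foxp3, and its letters are identical in Tnfrsf9 and Foxp3. The same letters occur in 8.13% of all 27025 genes with a window, in 7.34% of the 9250 tested genes with one, in 7.69% of the genes at least 2-fold higher in Treg and in 6.74% of those at least 2-fold lower. Among the genes of the IL-2 and STAT5 pathway, 1 of 16 with a window holds them (6.25%). A match describes the sequence and shows no binding.

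Genes for suppressive molecules were largely higher in Treg. This list shares members with the Treg core list, Lrrc32 and Itgb8 among them, so the 2 counts are not independent. Of 22 suppressive effector genes tested, 19 were higher and 1 lower, against 27.5% and 26.6% of all genes tested, with a median log2 fold change of 5.60. Tigit, an inhibitory receptor for CD155, was at 85.6, 65.9, 80.02 and 78.4 CPM in Treg and 0.626, 0.586, 0.337 and 0.449 CPM in CD5hi cells. Fgl2, a secreted fibrinogen-like protein, was at 47.8, 44.95, 61.4 and 56.7 CPM against 0.173, 0.0451, 0.142 and 0.0999 CPM. Every Treg library exceeded every CD5hi library in both genes. Itgb8, whose integrin releases active TGF-beta, went from 0.0541 to 25.4 CPM (log2 fold change 8.84, SE 0.31, adjusted p = 2.39e-14), and Ebi3, a subunit of IL-27 and IL-35, from 0.183 to 17.03 CPM (6.55, SE 0.36). Il10 stayed low in Treg, at 3.17, 2.81, 4.56 and 3.8 CPM, with 2 counts in the 4 CD5hi libraries together. Il1r2, the decoy receptor of IL-1, had 12.5 CPM in Treg and 2 counts over the CD5hi libraries. Among effectors shared with cytotoxic cells, Prf1 (perforin) was lower in Treg, at 6.86, 7.49, 5.79 and 6.42 CPM against 21.7, 19.6, 20.5 and 20.8 CPM. Lgals9 did not pass, at 161 and 157 CPM (95% interval of the log2 difference -0.13 to 0.06, limma-voom).

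Most genes of the IL-2 and STAT5 pathway were higher in Treg. Of 18 tested, 15 were higher and 2 lower, against 27.5% and 26.6% of all genes tested, at a median of 0.79. Il2rb, the signalling beta chain, was at 1099, 1147, 1081 and 1202 CPM in Treg and 33.5, 35.1, 35.04 and 31.7 CPM in CD5hi cells. The common gamma chain Il2rg did not pass (613 and 622 CPM, 95% interval of the log2 difference -0.09 to 0.14). Socs2 and Cish, feedback inhibitors induced by STAT5, went from 0.153 to 69.04 CPM and from 14.9 to 211 CPM. Socs1, a further inhibitor of JAK kinases, went from 27.2 ± 3.52 to 96.4 ± 9.79 CPM. Bcl2l1 (Bcl-xL), a survival target, was at 13.5 CPM in CD5hi cells and 67.3 CPM in Treg (log2 fold change 2.32, SE 0.09, adjusted p = 2.92e-15). Jak1, the kinase on the beta chain, fell from 1268 to 895 CPM, and Pim2, a survival kinase, from 87.1 to 27.6 CPM. Il2 itself was too low in both groups to be tested.

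Members of the Ikaros zinc finger family moved in opposite directions. Of the 5 members tested, Ikzf2, Ikzf4 and Ikzf3 (Aiolos) were higher, by 6.53, 2.89 and 0.76 on the log2 scale, and Ikzf1 (Ikaros) was lower by 1.47. Ikzf1 was at 397, 412, 382 and 390.3 CPM in Treg replicates 1 to 4 and 1093, 1116, 1051 and 1128 CPM in CD5hi replicates 1 to 4, with no overlap. Ikzf5 (Pegasus) was at 52.2 and 50.2 CPM and did not pass (95% interval -0.17 to 0.05).

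Among 37 genes for partners of Foxp3 and chromatin regulators, 17 were higher and 11 lower in Treg, against 27.5% and 26.6% of all genes tested, and the median was 0.14. The gains were led by Hdac9, a class II histone deacetylase, from 0.336 to 10.4 CPM, and by Uhrf1, which guides maintenance methylation, from 4.81 to 17.3 CPM. Gata3 and Hif1a, transcription factors that bind with or restrain Foxp3, went from 52.2 to 109.6 CPM and from 117 to 253 CPM. Tet1, an enzyme that oxidises methylated cytosine, was lower, at 23.5, 20.5, 18.2 and 25.7 CPM against 61.5, 61.9, 53.5 and 60.6 CPM. Runx3 fell from 112 to 63.5 CPM and Foxp1 from 323 to 214 CPM. Creb1, which binds regulatory DNA of Foxp3, did not pass (191 and 179.5 CPM, 95% interval -0.23 to 0.05).

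Regulators of effector Treg and of helper lineages were higher for 22 of 29 members tested and lower for 2, at a median of 2.85. The shares over all genes tested were 27.5% higher and 26.6% lower. Maf, which directs IL-10 and tissue programmes, was at 166, 149, 191 and 183 CPM in Treg and 5.87, 5.7, 4.36 and 3.25 CPM in CD5hi cells. Irf4, induced by TCR signals and needed by effector Treg, went from 6.82 ± 0.411 to 96.2 ± 5.25 CPM, and Bhlhe40, a repressor of Il10 in helper cells, from 0.855 ± 0.27 to 25.95 ± 1.57 CPM. The groups did not overlap in these 3 genes. Il1rl1, which encodes the IL-33 receptor ST2, reached 50.6, 44.5, 43.3 and 60.8 CPM in Treg against 0.259, 0.0902, 0.0709 and 0.117 CPM in CD5hi cells. Id2, an inhibitor of E proteins, was lower (60.6 to 19.6 CPM, log2 fold change -1.63, SE 0.14, adjusted p = 1.54e-09), as was the genome organiser Satb1 (1088 to 282 CPM). Bcl6, the regulator of follicular cells, did not pass, at 35.3 and 34.4 CPM (95% interval -0.19 to 0.14).

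Genes that TCR signalling induces ran from far above the CD5hi level to somewhat below it. Of 25 tested, 17 were higher in Treg, 13 of them by at least 2-fold, 1 was lower and 7 did not pass. Over all genes tested 27.5% were higher, 12.8% at least 2-fold higher and 26.6% lower. The median of the list was 1.25. The gains were led by Il2ra and by Cd83, an immunoglobulin-like activation marker, at 125, 107, 124 and 112 CPM in Treg and 0.712, 0.541, 0.585 and 0.782 CPM in CD5hi cells. The immediate transcription factor Egr1 was at 114, 109, 109 and 112 CPM in Treg and 107, 107, 116 and 103 CPM in CD5hi cells, with overlapping libraries (log2 difference 0.03, SE 0.17, 95% interval -0.18 to 0.25 by limma-voom, adjusted p = 0.879). Nab2, the corepressor of Egr factors, was at 103 ± 17.8 and 106 ± 4.1 CPM (95% interval -0.12 to 0.24), and Dusp2, a phosphatase of ERK, at 147 ± 17.6 and 162 ± 16.6 CPM (95% interval -0.07 to 0.37). In these genes Treg and CD5hi cells could not be separated by this test. Dusp6, a phosphatase of ERK that ERK induces, was lower in Treg, at 20.98, 22.2, 26.2 and 21.5 CPM against 39.2, 28.8, 35.9 and 35.5 CPM, a call that was lost with Treg replicate 3 as the only Treg library (log2 fold change -0.40, adjusted p = 0.0536).

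The Egr and Nr4a families, chosen here after their values were seen, lay between these ends. Egr3 was at 21.1 ± 1.23 CPM in CD5hi cells and 22.2 ± 0.259 CPM in Treg and did not pass (adjusted p = 0.684), while Egr2 went from 19.95 ± 1.91 to 47.9 ± 1.38 CPM (SD, n = 4). Nr4a1 (Nur77), an orphan receptor widely used to report TCR signals, was at 62.9, 69.7, 80 and 65.6 CPM in CD5hi cells and 117, 130.2, 123 and 117 CPM in Treg. Nr4a3 went from 10.9 ± 1.18 to 22.4 ± 1.85 CPM. Set beside fresh CD5lo naive cells, Nr4a1 was at 31.9 ± 2.99 CPM there, Egr1 at 63.6 ± 3.47 CPM and Egr2 at 12.5 ± 1.21 CPM. The levels of Nr4a1 and Egr2 thus stood lowest in CD5lo and highest in Treg, whereas Egr1 stood lowest in CD5lo, with ranges that overlapped between the other two groups. Folr4, at 35.7 ± 2.86 CPM in CD5lo cells, followed the first order, and Cd5, at 148 ± 9.83 CPM, was highest in the CD5hi gate. Irf4 was at 7.31 ± 0.635 CPM in CD5lo cells, and at 6.82 ± 0.411 CPM in CD5hi cells.

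**Figure D3:**
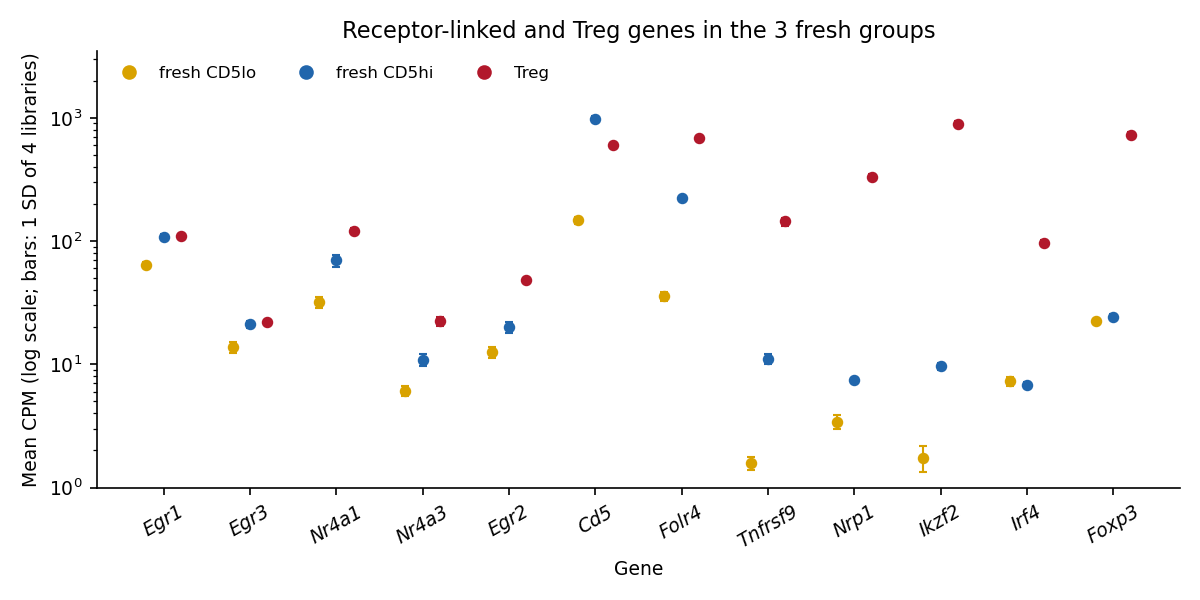
Mean levels of 12 genes (CPM, log axis) in fresh CD5lo, fresh CD5hi and Treg, with bars of 1 SD over 4 libraries. Egr1 and Egr3 lie within 1 SD of each other in CD5hi and Treg, Nr4a1, Nr4a3, Egr2, Folr4, Tnfrsf9, Nrp1 and Ikzf2 stand in the order CD5lo, CD5hi, Treg, Cd5 is highest in CD5hi, and Irf4 and Foxp3 are high in Treg alone of the 3.

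**Figure D4:**
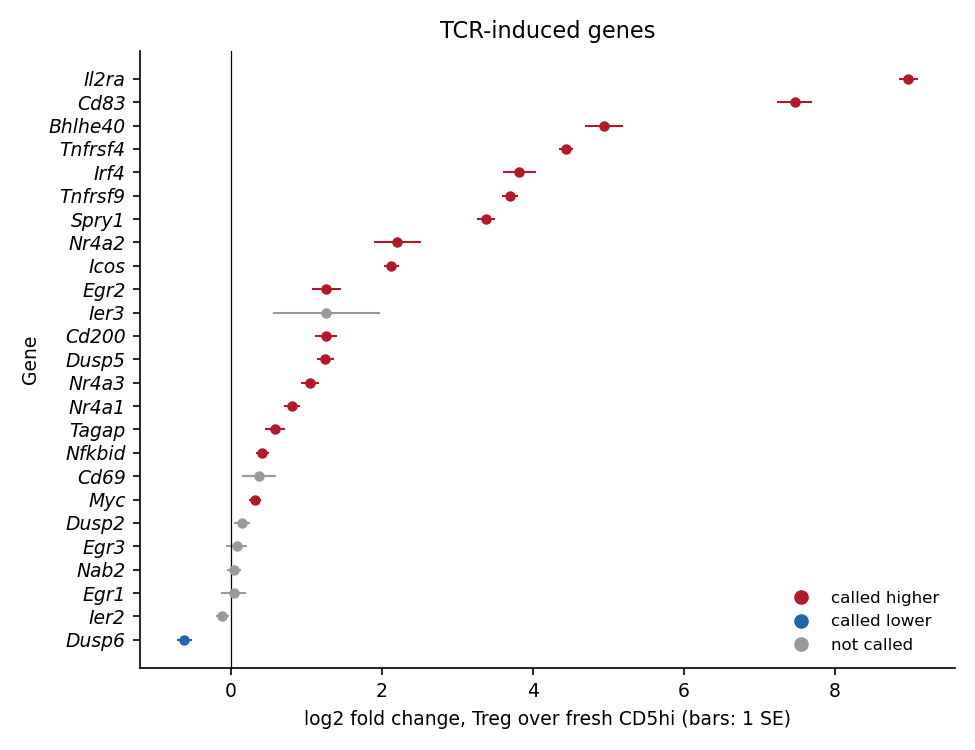
Log2 fold change (Treg over fresh CD5hi) of the 25 TCR-induced genes tested, with bars of 1 SE and colour by call. The points run from Il2ra at 8.97 to Dusp6 at -0.62, and Egr1, Egr3 and Nab2 lie at 0 within their errors.

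The immediate early genes, which many stimuli and cell handling induce, were higher for 7 of 15 tested and lower for 3, against 27.5% and 26.6% of all genes tested. Junb, an AP-1 subunit, went from 113 ± 3.95 to 211 ± 22.7 CPM and Klf6 from 89.6 ± 3.32 to 142 ± 7.68 CPM. Fosl2, another AP-1 subunit, fell from 14.2 ± 2.31 to 6.76 ± 1.18 CPM. Fos did not pass, at 9.64, 6.87, 9.24 and 10.2 CPM in CD5hi cells and 11.1, 21.4, 9.3 and 5.84 CPM in Treg, and the libraries overlapped.

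Many genes of the apparatus that carries the TCR signal were lower in Treg. Of 33 proximal signalling genes tested, 21 were lower and 5 higher, against 26.6% and 27.5% of all genes tested, at a median of -0.25. Themis, an adapter that tunes TCR signals in thymocytes, was at 39.5, 40.7, 36.5 and 35.7 CPM in Treg and 148, 154, 158 and 149.7 CPM in CD5hi cells. The highest Treg library was below the lowest CD5hi library. Txk, a Tec family kinase, fell from 142 to 63.6 CPM, the adapter Grap2 from 392 to 232 CPM and Malt1, the protease that links the receptor to NF-kappaB, from 216 to 138 CPM. The rises were small, led by Cd2 from 369 to 493 CPM and Lcp2 (SLP-76) from 331 to 406 CPM. Fyn and Cd247 (the CD3 zeta chain) did not pass, with 95% intervals of -0.07 to 0.13 and -0.23 to -0.01. For Cd247 every Treg library was below every CD5hi library (log2 difference -0.12, adjusted p = 0.0629 in edgeR's test). Its lowest adjusted p over the settings was 0.0377.

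Of 37 negative regulators of TCR signalling tested, 18 were higher and 7 lower, against 27.5% and 26.6% of all genes tested, at a median of 0.16. Rgs1, which limits chemokine receptor signals, went from 2.63 ± 0.25 to 179 ± 11.5 CPM. Nfkbia, the inhibitor of NF-kappaB, went from 119 ± 6.58 to 232 ± 0.938 CPM, and Rnf128 (GRAIL), an anergy-linked ubiquitin ligase, from 0.291 ± 0.0773 to 2.53 ± 0.338 CPM. Lower in Treg were the CD5 relative Cd6, at 586, 586, 593 and 586 CPM against 1013, 1021, 918 and 1032 CPM, the diacylglycerol kinase Dgka (1913 to 1069 CPM) and Pag1, the adapter that recruits Csk (277 to 133 CPM). Csk itself did not pass (426 and 402 CPM, 95% interval -0.18 to 0.02), nor did the ubiquitin ligase Cbl (254 and 279 CPM, 95% interval -0.03 to 0.30).

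Costimulatory and coinhibitory receptors were mostly higher in Treg. In the CD28 family and related coinhibitory receptors 16 of 21 tested were higher and 3 lower (median 1.26). In the TNF receptor superfamily 12 of 18 were higher and 4 lower (median 0.59). The shares over all genes tested were 27.5% higher and 26.6% lower. Havcr2 (TIM-3) went from 0.124 to 5.72 CPM and Pdcd1lg2 (PD-L2) from 1.19 to 27.9 CPM. Tnfrsf1b, the TNF receptor 2 that supports Treg growth, was at 456, 384, 442 and 464 CPM in Treg and 68.5, 72.8, 66.5 and 68.3 CPM in CD5hi cells, whereas Tnfrsf1a, the death-domain TNF receptor, was lower, at 39.5 against 55.2 CPM. Tnfrsf8 (CD30) had 10.2 CPM in Treg and 3 counts in all CD5hi libraries. Crtam, an adhesion receptor of cytotoxic T cells, fell from 4.65 to 0.861 CPM. Cd28 fell by 0.28 on the log2 scale, from 364 to 300.3 CPM, a call that was lost with library totals alone (log2 fold change -0.19, adjusted p = 0.0506) and with Treg replicate 3 alone, at a fold change of the same size (-0.28, adjusted p = 0.0749).

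Genes of the naive state were lower. Of 30 genes of naive identity and quiescence, 19 were lower and 3 higher (median -0.35). Of 19 genes known to be repressed by Foxp3 or low in Treg, 15 were lower and 4 higher (median -1.49). This second list is defined by low levels in Treg, so its direction is no independent evidence. It also shares members with the naive list, such as Dapl1, Igfbp4 and Id3. The shares over all genes tested were 26.6% lower and 27.5% higher. CD5hi cells were sorted without CD44 and Treg were not, and the part of this gate in the falls was not tested. Tcf7 (TCF-1), a keeper of the naive and stem-like state, was at 544, 574, 431 and 513 CPM in Treg and 2147, 2046, 1777 and 2029.6 CPM in CD5hi cells. Its relative Lef1 was at 124, 132, 108 and 127 CPM against 436, 432, 423 and 440.2 CPM, and Satb1 at 281, 324, 246 and 277 CPM against 1126, 1108, 1019 and 1098 CPM. All 3 transcription factors were 3.88-fold, 3.52-fold and 3.85-fold lower in turn, without overlap. Il7r, the IL-7 receptor that naive cells live on, fell from 645 to 229.5 CPM and Ccr7, the receptor for lymph node entry, from 484 to 204 CPM. Cd40lg, the helper ligand, fell from 85.9 to 17.99 CPM. Pde3b, a phosphodiesterase and known target of repression by Foxp3, was at 5.77, 5.65, 4.46 and 4.48 CPM in Treg and 131, 158, 178 and 132 CPM in CD5hi cells. Igfbp4, a binding protein of insulin-like growth factors, was at 97.8, 92.8, 85.2 and 97.2 CPM against 1092, 1154, 1243 and 1022 CPM. Ifng and Id3 were among the members that rose, from 0.131 to 1.3 CPM and from 56.5 to 103 CPM.

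The largest falls included several enzymes and receptors outside these lists. Ggt5, a gamma-glutamyl transferase, was at 0.204, 0.571, 0.336 and 0.576 CPM in Treg and 82.8, 70.5, 72.1 and 73.6 CPM in CD5hi cells (log2 fold change -7.50, SE 0.16, adjusted p = 2.49e-19), and its relative Ggt1 fell from 12.9 to 0.815 CPM. Vipr1, a receptor for vasoactive intestinal peptide, was at 9.82, 10.2, 10.3 and 12.6 CPM against 291, 318, 334 and 305 CPM. The Treg level was 0.564% of the CD5hi level for the first and 3.44% for the second of these, Ggt5 and Vipr1. Atp8b4, a lipid flippase, fell from 59.4 to 0.78 CPM, Hs3st3b1, a heparan sulfate sulfotransferase, from 109.7 to 4.93 CPM and App, the amyloid precursor protein, from 30.5 to 1.35 CPM. Dapl1 fell from 90.5 to 2.57 CPM, Pdlim4 from 24.5 to 0.212 CPM, Lypd6b from 33.96 to 0.934 CPM and Cnga1, a cyclic nucleotide gated channel, from 20.4 to 0.971 CPM. Among the largest rises outside the lists, Arnt2, a partner of bHLH-PAS factors, went from 0.0191 to 11 CPM, and Peli2, a ubiquitin ligase, from 0.0201 to 10.6 CPM.

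Further cytokine receptors were called in both directions. Of 29 genes tested in this list, 16 were higher and 10 lower, against 27.5% and 26.6% of all genes tested (median 0.50). The list also holds the ligand gene Csf1, a higher member that is counted again among the ligands below. Higher were Il9r, from 0.462 to 32.8 CPM, and Il12rb1, the shared chain of the IL-12 and IL-23 receptors, from 3.22 to 52.2 CPM. The TGF-beta receptors moved apart. Tgfbr1, the type I receptor, was at 200.3, 183, 187 and 190.4 CPM in Treg and 60.2, 60.3, 63.7 and 55.9 CPM in CD5hi cells. Tgfbr2, the type II receptor, was at 273, 279.7, 242 and 275 CPM against 636, 629, 623 and 626 CPM. The coreceptor Tgfbr3 (betaglycan) was at 15.2, 14.8, 12.8 and 17.2 CPM against 138, 125, 134 and 132 CPM. The type I receptor was thus higher, and the type II receptor and betaglycan lower, in every Treg library than in any CD5hi library. Of the 19 TGF-beta pathway genes tested, 9 were higher and 5 lower, against 27.5% and 26.6% of all genes tested. The inhibitory Smad7 fell from 186 to 117 CPM, and the corepressor Ski did not pass (347 and 348 CPM, 95% interval -0.10 to 0.11). Il1rl2, the IL-36 receptor, fell from 17.96 to 0.799 CPM.

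Of the 36 helper cytokine and TNF ligand genes listed, 21 were expressed enough to be tested, 14 higher and 5 lower. The shares over all genes tested were 27.5% higher and 26.6% lower. Csf1, the macrophage growth factor, went from 1.79 to 30.4 CPM, while Fasl, the death ligand, fell from 7.96 to 3.16 CPM and Tnfsf8, the ligand of CD30, from 51.6 to 37.3 CPM.

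Several receptors that guide cells into tissues were higher, and several of lymph node traffic lower, in Treg. Of 24 chemokine and homing receptors tested, 13 were higher and 6 lower, against 27.5% and 26.6% of all genes tested (median 1.52). Ccr6, which responds to CCL20 at mucosal surfaces, was at 47.4, 40.9, 42.4 and 50.3 CPM in Treg and 0.0432, 0.248, 0.0709 and 0.0499 CPM in CD5hi cells. Ccr4, linked to skin homing, was at 90.9, 83.1, 88.4 and 98.03 CPM against 2.24, 2.79, 2.18 and 2.28 CPM. The CD5hi libraries were close to 0 for the first and low for the second. Gpr15, a colon homing receptor, went from 0.0454 to 21.7 CPM and Ccr2 from 0.639 to 62.7 CPM. S1pr1, the exit receptor of lymph nodes, was at 458, 452, 429.8 and 395 CPM against 761, 709, 691 and 755 CPM, and Gpr183, an oxysterol receptor, fell from 97.2 to 56.5 CPM. Cxcr1, a neutrophil chemokine receptor, had 3.06 CPM in CD5hi cells and 2 counts over the 4 Treg libraries. Selplg did not pass (604 and 629.9 CPM).

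Of 21 integrin and partner genes tested, 13 were higher and 3 lower, against 27.5% and 26.6% of all genes tested. Itgb1, the shared beta 1 chain, was at 376, 319.9, 327 and 339 CPM in Treg and 58.6, 62.05, 61.1 and 57.3 CPM in CD5hi cells, and its partner Itga2 went from 1.67 to 8.65 CPM. Itgb3, the beta 3 chain, was at 69.6, 72.6, 69.3 and 72.7 CPM against 312, 319, 309 and 320.0 CPM, the opposite direction in every library. Itga4 and Itgb2 did not pass, with 95% intervals of -0.05 to 0.18 and -0.22 to 0.01.

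Genes of effector cytoskeleton and membrane repair rose in 20 of 29 tested and fell in 2 (median 1.96). The shares over all genes tested were 27.5% higher and 26.6% lower. S100a4, a calcium-binding protein of motile cells, was at 85.3, 73.5, 87.9 and 82.3 CPM in Treg and 0.367, 0.699, 0.851 and 0.499 CPM in CD5hi cells, and S100a6 at 77.9, 70.2, 77.8 and 73.6 CPM against 1.23, 1.4, 1.33 and 0.899 CPM. Ahnak, a giant scaffold of the cell membrane, went from 65.8 ± 4.31 to 928 ± 121 CPM. The groups did not overlap in any of the 3, and the part of the CD44 gate in these values was not tested. Tmsb10, an actin-binding thymosin, fell from 1029 to 645 CPM.

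Cycling genes were higher in Treg from a low base. Of 30 cell cycle genes tested, 21 were higher and 1 lower, against 27.5% and 26.6% of all genes tested (median 0.80). Mki67, a marker of dividing cells, was at 58.7, 50.8, 65.2 and 72.7 CPM in Treg and 10.1, 10.3, 10.4 and 7.12 CPM in CD5hi cells, and Ccnb2, a mitotic cyclin, at 4.99, 4.72, 5.29 and 6.5 CPM against 0.906, 1.19, 1.14 and 0.866 CPM. In contrast, the replication factor Pcna did not pass (127 and 123 CPM, 95% interval -0.27 to 0.20) and the helicase subunit Mcm2 fell by 0.30 on the log2 scale, from 79.9 to 65.01 CPM. Among 17 cyclin D, CDK and inhibitor genes, 12 were higher and 2 lower, against the same shares. Cdk6 went from 5.94 to 16.3 CPM, the p53 target Cdkn1a from 0.0796 to 1.36 CPM and Ccnd3 from 220.1 to 154 CPM. In the BCL2 family 12 of 18 were higher and 2 lower, against the same shares. The lower count was 1 without Treg replicate 1, 3 or 4 or CD5hi replicate 2, 3 or 4. Pmaip1 (Noxa), which promotes death, went from 0.709 to 12.9 CPM, and Bcl2l2 (Bcl-w), which opposes it, from 3.87 to 13.5 CPM. Bcl2a1b and Bcl2a1d, near-identical copies whose reads may be shared, went from 7.85 to 27.3 CPM and from 2.17 to 7.32 CPM.

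Of 23 glycolysis genes 12 were higher and 5 lower in Treg, against 27.5% and 26.6% of all genes tested. Hk2 went from 0.28 to 6.04 CPM, Eno2 from 0.919 to 8.53 CPM and the glucose transporter Slc2a3 from 52.1 to 162 CPM. Pdk1, a pyruvate dehydrogenase kinase, was lower, at 165, 154, 169 and 175 CPM against 344, 341, 284 and 350.2 CPM. Ldha and Pgk1 did not pass, with 95% intervals of -0.23 to 0.13 and -0.11 to 0.08. Of 27 genes of cholesterol and fatty acid synthesis 6 were higher and 8 lower, near the shares over all genes (median 0.03), with Acss2 down from 111 to 49.9 CPM and Fasn from 347 to 219 CPM. With library totals alone the split was 10 higher and 6 lower. Of 39 oxidative phosphorylation genes 7 were higher and 3 lower (median 0.02), below the share of calls over all genes, and 13 and 1 with library totals alone.

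Ribosomal protein genes leaned one way. Of 40 cytosolic ribosomal protein genes 26 were lower and 0 higher in edgeR's test, at a median log2 fold change of -0.25. The shares over all genes tested were 26.6% lower and 27.5% higher. The count of higher members was 0 at an unadjusted p under 0.05, 0 with DESeq2 and 0 with limma-voom. Their summed level was 36621 to 45325 CPM in the Treg libraries and 50942 to 52726 CPM in the CD5hi libraries, without overlap. Rps24 was at 1427, 1474, 1366 and 1134 CPM in Treg and 1965, 2019.6, 1982 and 1944 CPM in CD5hi cells. The elongation factor Eef1a1 fell by 0.26 on the log2 scale, from 11610 to 9684 CPM. The number of calls depended on the libraries and the scaling, with 16 lower with library totals alone, 18 with the sex term and 11 with Treg replicate 3 alone.

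Among 37 interferon-stimulated genes 14 were higher and 7 lower, at a median of 0.07 and near the share of calls over all genes. Gbp3, a guanylate-binding protein, was at 115, 118, 135 and 118 CPM in Treg and 9.82, 10.03, 10.9 and 9.45 CPM in CD5hi cells, and Iigp1, another interferon-inducible GTPase, went from 51.2 to 154 CPM. Oas2, a sensor of double-stranded RNA, was at 22.4, 18.4, 19.2 and 27.7 CPM against 103, 89.8, 106 and 87.9 CPM, while its relative Oas1a went from 16.2 to 44.1 CPM. Members of this list thus moved both ways by over 2-fold. Ly6e, an interferon-inducible surface protein, was at 1499, 1522, 1331 and 1531 CPM against 663, 650.3, 634 and 617 CPM, and H2-K1, a class I MHC heavy chain whose reads may be shared with its relatives, went from 3209.7 to 4282 CPM.

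Of 8 Gimap GTPases 4 were higher, led by Gimap7 from 44.1 to 135 CPM, and 1 was lower, against 27.5% and 26.6% of all genes tested. The lower member, Gimap6, went from 673 to 553 CPM (log2 fold change -0.28, adjusted p = 0.0464), and its call was lost without any 1 of the 8 libraries (adjusted p = 0.0532 to 0.17), and with library totals alone, DESeq2 or the sex term (adjusted p = 0.141, 0.0691 and 0.622). Of 20 genes of the cAMP pathway 9 were higher and 7 lower, against the same shares. The prostaglandin E2 receptors Ptger2 and Ptger4 went from 6.65 to 44.6 CPM and from 35.1 to 108 CPM. The adenylate cyclase Adcy6 fell from 133 to 47.7 CPM and the phosphodiesterases Pde7a and Pde4d from 87.3 to 35.9 CPM and from 119.7 to 51.03 CPM, beside the loss of Pde3b. Of 11 genes that mark recent thymic development 6 were higher and 1 lower, again against these shares over all genes. Dntt, the terminal transferase of thymocytes, did not pass (1.98 and 1.88 CPM), Tox2 rose from 0.444 to 11.9 CPM, and Sox4 fell from 28.5 to 8.46 CPM.

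**Figure D5:**
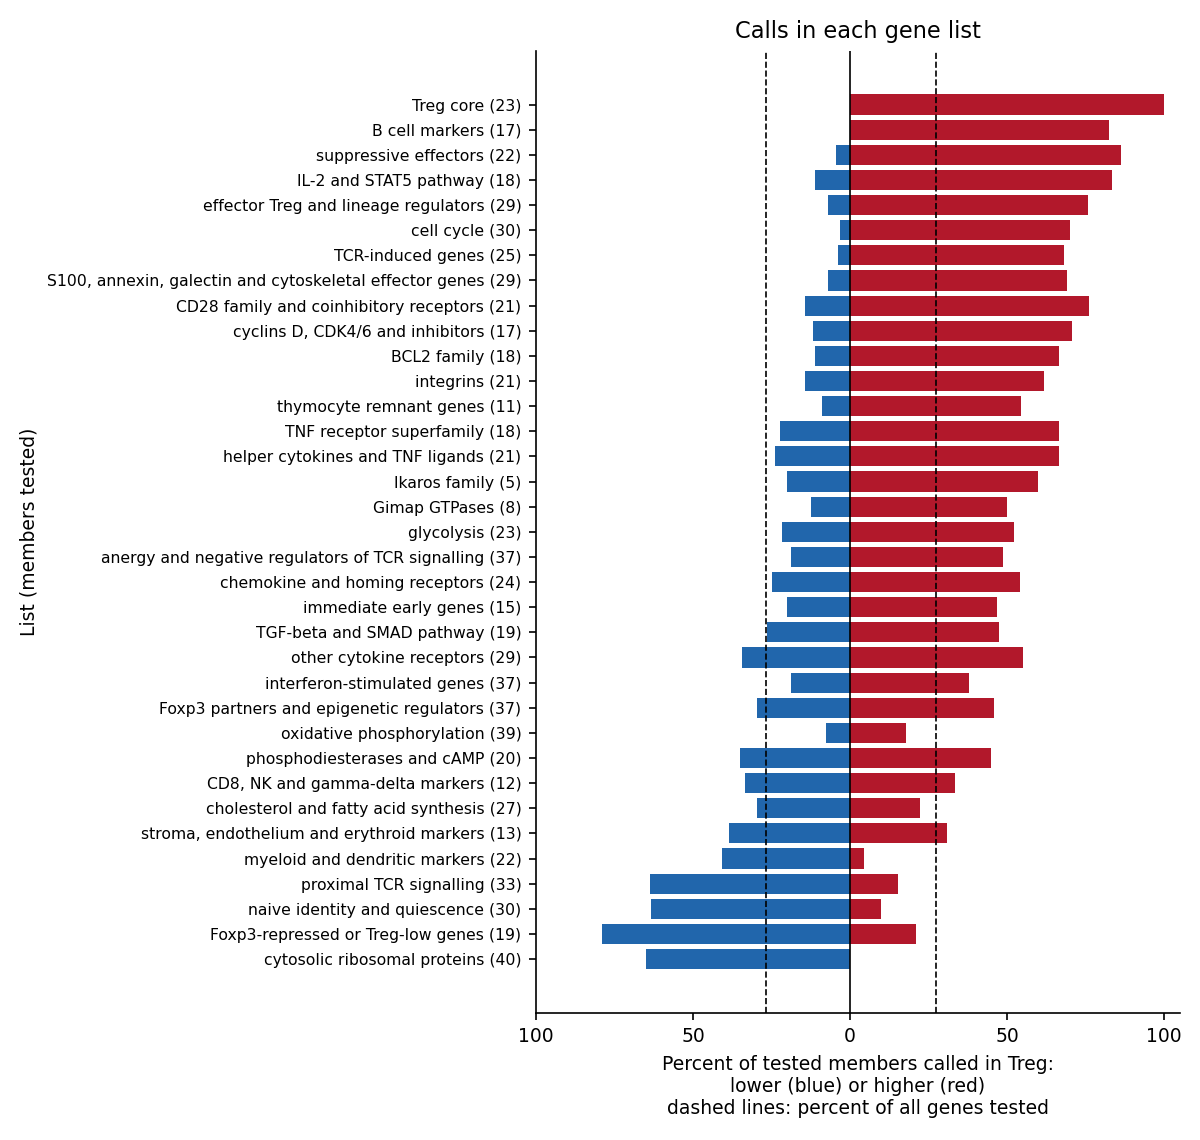
Percent of each list's tested members (number in brackets) called higher (red, right) or lower (blue, left) in Treg; dashed lines mark the 27.5% higher and 26.6% lower over all genes tested. All 23 Treg core genes are higher, and naive identity, Foxp3-repressed, proximal TCR and ribosomal protein genes lie mostly to the left.

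Transcripts of other cells were low in both groups, yet not evenly so. The marker counts below stand against 27.5% higher and 26.6% lower over all genes tested. B cell markers were higher in Treg for 14 of 17 tested, with a summed level of 121 to 135 CPM in Treg libraries and 17.8 to 20.5 CPM in CD5hi libraries. In Treg most of the sum was Cd74, the MHC class II invariant chain, at 65.9, 71.6, 66.1 and 68.1 CPM in Treg and 6.6, 5.23, 5.64 and 6.64 CPM in CD5hi cells, and Cd79b, of the B cell receptor, at 18.1, 16.99, 17.7 and 15.9 CPM against 1.12, 0.563, 0.461 and 0.649 CPM; in CD5hi cells other members made up the larger part. The partner of Cd79b, Cd79a, chosen after its values were seen, did not pass, at 3.01 and 3.85 CPM. Lower members numbered 0 in edgeR's test, 0 at an unadjusted p under 0.05, 0 with DESeq2 and 0 with limma-voom. Of 22 myeloid markers 1 was higher and 9 lower, with sums of 18.7 to 23.9 CPM in Treg and 28.3 to 33.4 CPM in CD5hi libraries. Of 12 CD8, NK and gamma-delta markers 4 were higher and 4 lower, near the shares over all genes. Their sums were 36.9 to 44.1 CPM in Treg and 43.5 to 47.9 CPM in CD5hi libraries. Nkg7, a granule protein, went from 0.504 to 10.3 CPM. Of 13 stromal, endothelial and erythroid markers 4 were higher and 5 lower (2 without Treg replicate 1 or 2 or CD5hi replicate 1), with Pdgfra and Krt8 at 0 counts in all 8 libraries and sums of 184 to 231 and 293 to 342 CPM, most of it Pecam1, which T cells also express. The part of these transcripts in the results above was not tested.

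With Treg replicate 3 as the only Treg library, whose sex-linked reads match the CD5hi libraries, the lone sample is assumed to vary like the other groups. All 23 Treg core genes were then higher, as were 19 of 22 suppressive effectors, 11 of 18 IL-2 and STAT5 genes, 15 of 25 TCR-induced genes and 22 of 29 effector Treg and lineage regulators. Lower were 19 of 30 naive identity genes, 13 of 19 Foxp3-repressed genes and 15 of 33 proximal TCR genes. Il2ra had a log2 fold change of 8.91 (adjusted p = 2.06e-17) and Tcf7 of -2.21 (adjusted p = 2.27e-10). Larger changes in number were seen in immediate early genes, with 4 higher in place of 7, myeloid markers, with 2 lower in place of 9, and oxidative phosphorylation genes, with 3 higher and 0 lower. Lower members numbered 1 in the CD28 family, 2 in the TNF receptor superfamily and 3 in glycolysis. Genes of cholesterol and fatty acid synthesis had 4 lower in place of 8.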

How the data were processed

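RNA was sequenced as paired 50-cycle reads from TruSeq mRNA libraries, per the labels' protocols. The authors' deposited table gives whole-number counts per gene symbol. The mouse build mm9, the aligner TopHat2 (2.0.11) and the counter featureCounts (1.4.5) are listed in the submitters' processing notes. The annotation, and whether counting used strand, are not stated in these sources. Small counts are mostly even (62.3% to 66.2% of counts of 1 to 10), as when both mates are counted. Counts were fitted in edgeR 4.0.16 (R 4.3.3; TMM scaling, filterByExpr, quasi-likelihood test) with all 20 libraries and 5 groups, which share one spread over 15 residual degrees of freedom; the contrast was Treg minus fresh CD5hi, with Benjamini-Hochberg adjustment over 13309 of 22068 symbols and calls at an adjusted p under 0.05. The 95% intervals come from limma-voom (limma 3.58.1). Alternatives used other scalings, filters, DESeq2 1.42.0, limma-voom, fewer libraries, a replicate block, a sex term, a 1.5-fold threshold and halved counts. The fit was tested on simulated data. It recovered 58.2% of genes changed 1.5-fold, 83.6% of those changed 2-fold and 95.5% of those changed 4-fold. Of its calls, 5.39% were false. The simulation changed 67, 67 and 66 genes in turn, far fewer than the 7208 called in the data.

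The comparison, members and gene lists were chosen with earlier results of these data known. Lists share members, so their counts and medians are not independent of each other. Il2ra, for example, is counted among the Treg core, the TCR-induced and the IL-2 and STAT5 genes. Genes named are the gate genes and cell type markers; the 12 largest rises and falls with at least 10 CPM and no overlap, and the 6 largest in CPM; and per list up to 5 called members per direction with at least 1 CPM and up to 3 that did not pass, from which those shown were taken; others are said to have been chosen after their values were seen. Some list members are counted in their lists but not reported here by name. No interval corrects for reads that are not independent molecules. The replicate numbers are not stated to pair Treg with CD5hi libraries, so the reported fit used no block. Same-numbered libraries of these groups did not deviate together.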

Additional observations from a re-analysis of the deposited data

Results flagged for a closer look

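A library was singled out where it lay far from the other 3 of its group (gap over range above Dixon's 95% critical value). This was so in 27 of the 366 groups screened, that is 183 named genes in Treg and in CD5hi cells. The critical value is set for about 1 in 20 among independent, normally distributed values. That rate is no measure for these groups. For Klrg1, Il1r2, Il10 and Cxcr1 only 1 library of the flagged group had reads, and the sex-linked flags all fall on the same library. Values are CPM, and no explanation was tested.

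Treg replicate 3 stood apart in sex-linked genes, with 0.598 for Xist and 0.243 for Tsix (the other Treg libraries 1501 to 1736 and 109.9 to 128) and with 98.6 for Ddx3y, 98.9 for Eif2s3y, 92.5 for Kdm5d and 43.2 for Uty (the others at most 0.0853, 0.0213, 0.0426 and 0). It was also lowest for Ly6e at 1331 and highest for Cd6 at 593. Treg replicate 4 was highest for Ahnak at 1109, Vipr1 at 12.7 and Pim2 at 29.7, and lowest for Gimap7 at 122. Treg replicate 1 held the only Cxcr1 reads of its group, 0.0341.

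Among CD5hi libraries, replicate 2 was highest for Ccr6 at 0.248, Dapl1 at 104, Ccr4 at 2.79 and Il1r2 at 0.0451, and lowest for Malt1 at 212. Replicate 3 was highest for Socs1 at 32.4, Csk at 451 and Cbl at 280.1, and lowest for Tet1 at 53.5 and Pdk1 at 284. Replicate 4 was lowest for Mki67 at 7.12 (the others 10.1 to 10.4) and Tox2 at 0.283, and highest for Klrg1 and Il10, each at 0.0333.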

How the results depend on the processing

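Calls numbered 7208 in all, 3663 higher and 3545 lower. With Treg replicate 3 as the only Treg library, 4734 were called and 2049 were lower. Against a 1.5-fold change (glmTreat), 2400 were called, 1807 higher and 593 lower. The other settings stayed within 1.5 times of each count, and no gene called in both a setting and the reported fit changed direction. Leaving out 1 library at a time gave 6579 to 6801 calls, 3483 to 3676 higher, 3048 to 3289 lower, 1695 to 1770 at least 2-fold higher and 477 to 498 at least 2-fold lower. Library totals alone moved the median log2 fold change by 0.09.

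Deviations of same-numbered Treg and CD5hi libraries from their group means correlated at 0.02, -0.05, 0.01 and -0.04 for replicates 1 to 4. These values show no pairing by number, but groups of 4 libraries cannot exclude one. With the replicate block 7404 genes were called on all 20 libraries and 7491 on the 8 libraries.

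Of 155 named genes that passed, 150 did so in every setting they were fitted in other than the 1.5-fold threshold; the exceptions were Cd28, Dusp6, Gimap6, Tsix and Xist, and the cause was not tested. Genes with a few counts per library and groups of 4 libraries limit what can be told near 0.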
